A study of Mus musculus with 30 samples.

Results

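The presumptive RPE (pRPE) of the E12 mouse eye was compared along its proximal-distal axis, between the end next to the optic stalk (OS) and the end toward the rim of the optic cup. The libraries were chosen by their tissue label: of 30 Geo-seq libraries, 14 were labelled RPE, and these comprised 7 distal libraries (3 dorsal and 4 ventral) and 7 proximal libraries (4 dorsal and 3 ventral). No measured value entered this choice. All 14 libraries are from E12 and carry the genotype label Control, which the study's methods describe in general as littermates without the Dct-Cre transgene, on a C57Bl6/J background. The groups thus shared the genotype label and the stage and differed in position, and the Smarcc1-DCT-cKO embryos of the study are not analysed here. In Geo-seq a defined patch of a cryosection is cut out by laser, and its RNA is amplified and sequenced. The methods of the study speak of 4 control embryos, whereas the labels used here do not tie a library to an embryo. The numbers of the 14 libraries fall in 4 blocks, in which no region occurs more than once. Whether a block is an embryo is not given in the labels. A list of mouse IDs that the study describes is not used here. Libraries of the same embryo may therefore be counted as separate samples, and the p-values measure the spread between libraries. Each library is named below by the number in its label.

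The RPE is the pigmented layer outside the neural retina, formed from the outer layer of the optic cup. Mitf and Otx2 specify it and switch on the melanosome genes Pmel, Tyr, Tyrp1 and Dct, which build the organelle in which melanin is made. Proximally this layer is continuous with the optic stalk, and distally with the ciliary margin, where Wnt and BMP signals are active. The comparison addresses whether this layer differed in gene expression between these ends at E12, once its dorsal or ventral position and the batch given in the labels (A or B) were accounted for.

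None of 6305 genes was called different between distal and proximal pRPE (0% of the genes tested). The criteria were p under 0.05 in edgeR's quasi-likelihood test after Benjamini-Hochberg adjustment and a change of more than 0.58 on the log2 scale. The smallest adjusted p was 0.644. At an unadjusted p under 0.05 there were 348 genes (5.52%), of which 75 were higher in distal pRPE (1.19%) and 273 were lower (4.33%). Log2 fold changes are given as distal minus proximal throughout, and their median over all genes tested was -0.12, with 2879 of 6305 genes (45.7%) above 0. With the log2 number of detected genes as a further covariate this lean turned: 214 genes were higher and 149 lower at an unadjusted p under 0.05, and the median was 0.19. The spread between libraries was large: the common dispersion was 4.39, and 39.4% of the tested values were 0. The median SE of a log2 fold change was 1.93 over all genes tested and 0.66 over the 962 genes counted in all 14 libraries. Each SE was derived from the test, as the absolute log2 fold change over the square root of its F statistic. DESeq2 called 37 genes, limma voom with quality weights 4 genes, and edgeR without a filter on low counts 14 genes of 19649. The 4 genes of limma were mt-Co2, mt-Nd4, mt-Rnr1 and mt-Nd2, each higher in distal pRPE in that fit, whereas edgeR gave them log2 fold changes of 0.03, -0.17, -0.11 and -0.04 (adjusted p = 1.00 each).

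The distal-proximal difference was also compared between the dorsal and the ventral side. As an interaction in edgeR, 0 genes were called and 581 had an unadjusted p under 0.05, with a smallest adjusted p of 0.533. DESeq2 called 792 genes in the same comparison.

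The libraries differed widely in depth and in the number of genes with a count. Total counts on genes ranged from 1767804 to 6041021 in distal pRPE (median 2742371) and from 1557558 to 3940225 in proximal pRPE (median 2952630). Genes with at least 1 count numbered 4950 ± 2022 in distal pRPE and 6211 ± 2418 in proximal pRPE (SD, n = 7 each), with a range of 2979 to 8678 and of 3427 to 9886. The groups overlapped over most of their range, and the difference of -1261 genes was smaller than either SD (two-sided exact permutation test, p = 0.306, adjusted 0.552 over 4 library measures). Within batch A the difference was 21.5 genes (p = 0.971, two-sided exact permutation test) and within batch B it was -2740 genes (p = 0.229). With 3 against 4 libraries in a batch, this test cannot reach a p under 0.05. Dorsal proximal libraries had 7256 ± 2782 genes (SD, n = 4), dorsal distal 6169 ± 2518 (n = 3), ventral proximal 4818 ± 918 (n = 3) and ventral distal 4036 ± 1161 (n = 4). Neighbours in this order differed by less than the larger of their SDs. In such captured areas, fewer cells and less RNA per cell cannot be told apart.

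Total counts differed by 299310 between the groups (two-sided exact permutation test, p = 0.677, adjusted 0.677). The 37 mitochondrial genes held 40.3% ± 8.53 of the counts in distal pRPE and 44.3% ± 4.08 in proximal pRPE (SD, n = 7 each), which gave p = 0.281 in the two-sided exact permutation test (adjusted 0.552). Dorsal distal library 31 had the most counts and the highest mitochondrial share, 55.4%. Without it the share was lower in distal pRPE by 6.54 percentage points with an unadjusted p of 0.0396 (two-sided exact permutation test), and the difference in total counts was -179156. Within batch A the mitochondrial difference was 2.29 percentage points, and within batch B it was -7.99. It was -0.513 on the dorsal side and -8.36 on the ventral side (p = 0.0571, two-sided exact permutation test). On the ventral side each distal library (33.5% to 46.9%) was below each proximal one (48.1% to 48.4%), so this p is the smallest that so few libraries allow.

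The first principal component (PC1) of the 14 libraries held 22.9% of the variance and did not separate the groups. Distal scores ranged from -128 to 128 and proximal scores from -126 to 136 (difference of means -46.1, two-sided exact permutation test, p = 0.414, adjusted 0.552). The 5 libraries with the highest PC1 scores, from 64.7 to 136, were also those with the most detected genes, from 6187 to 9886. All were dorsal, and they comprised distal libraries 31 and 81 and proximal libraries 32, 62 and 82.

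**Figure D1:**
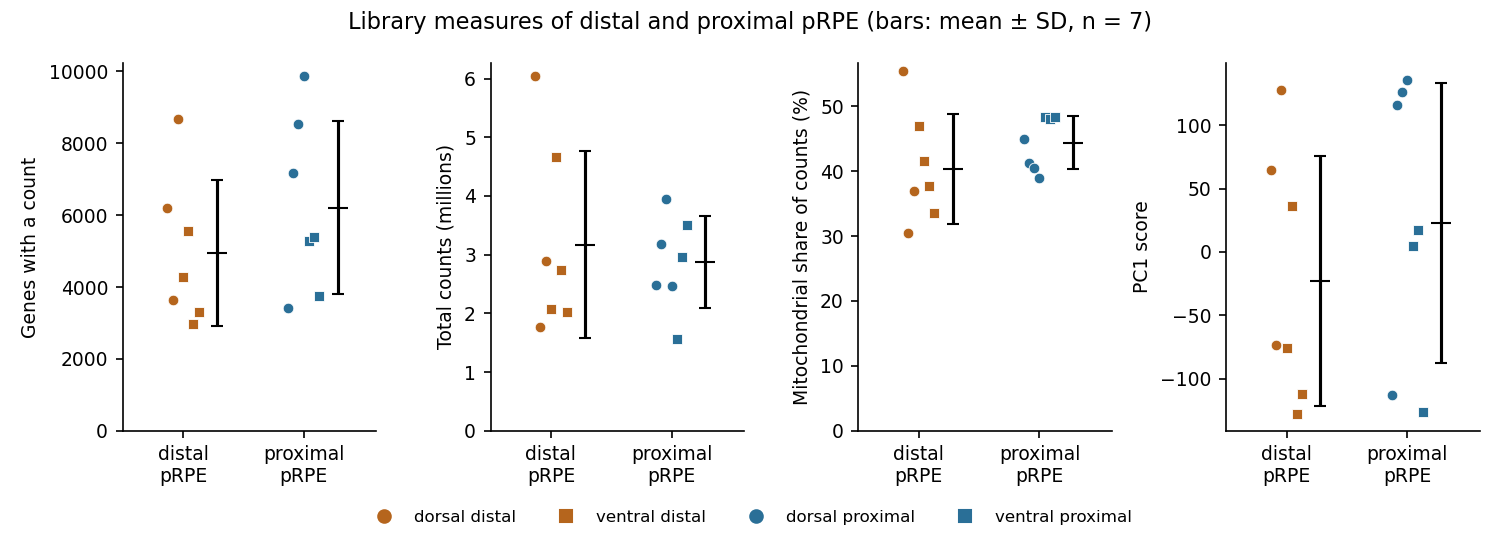
Genes with a count, total counts (in units of 1000000), mitochondrial share of counts (%) and PC1 score of each of the 7 distal and 7 proximal pRPE libraries, with dorsal libraries as circles and ventral ones as squares. Black bars give the mean ± SD. In each panel the groups overlap, and the distal library with the most counts (6041021) is also the one with the highest mitochondrial share (55.4%).

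The tissue label was checked against 10 marker genes of the RPE. Values for single genes are counts per 1000000 counts of a library (CPM), with library sizes scaled by TMM. Of the markers, 5 had a count in at least 7 of the 14 libraries. Slc45a2, a melanosome membrane transporter needed for pigmentation, had 242, 700 and 1657 CPM as the lowest, median and highest distal value, and 0, 350 and 1652 CPM in proximal pRPE. It was counted in all libraries except ventral proximal library 87, and the groups overlapped (log2 fold change 0.83, SE 1.19, edgeR adjusted p = 1.00). Gpnmb, a melanosome glycoprotein, was counted in every library, from 151 to 805 CPM in distal pRPE (median 431) and from 6.55 to 1025 CPM in proximal pRPE (median 263). Mitf, the transcription factor that specifies the RPE, was counted in 4 of 7 distal libraries (0 to 231 CPM, median 23.1) and in all 7 proximal ones (19.2 to 197 CPM, median 48.5), with a log2 fold change of -0.49 (SE 1.51, edgeR adjusted p = 1.00). For Mitf the value was -1.38 within batch A, -2.80 within batch B and -3.99 without dorsal distal library 81, and it ran from -4.25 to 0.53 over the alternative settings. Trpm1, a channel gene under the control of Mitf, had medians of 16.5 CPM in distal and 75.3 CPM in proximal pRPE. Oca2, a melanosome transporter, had medians of 22.0 and 22.2 CPM.

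The other defining markers were at or near 0. Tyr, Tyrp1 and Dct, the enzymes of melanin synthesis, were listed at 0 in all 14 libraries. Pmel, which forms the fibrils of the melanosome, was counted in distal libraries 36 (4.13 CPM) and 86 (34.6 CPM) and in proximal library 82 (4.68 CPM). Otx2 was counted in proximal libraries 62 (3.25 CPM) and 82 (19.6 CPM) and in no distal library. The RPE label could thus be checked here on Mitf, Slc45a2, Oca2, Trpm1 and Gpnmb, which were also counted in the OS, in 7, 7, 9, 13 and 10 of 16 libraries. Per total counts, Slc45a2 had medians of 598 CPM in the pRPE and 0 in the OS, and Gpnmb of 429 and 2.69 CPM. Their highest values were 1732 and 957 CPM in the pRPE and 1556 and 764 CPM in the OS. Mitf had medians of 35.5 CPM in the pRPE and 0 in the OS. Tfec, a factor of the Mitf family and not among the markers, had a higher median in the OS (293 CPM) than in the pRPE (32.7 CPM). Trpm1 had medians of 65.1 and 45.3 CPM, with its highest value in the OS (487 CPM), and Oca2 of 20.2 and 8.10 CPM. The difference between pRPE and OS was not tested for these genes.

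**Figure D2:**
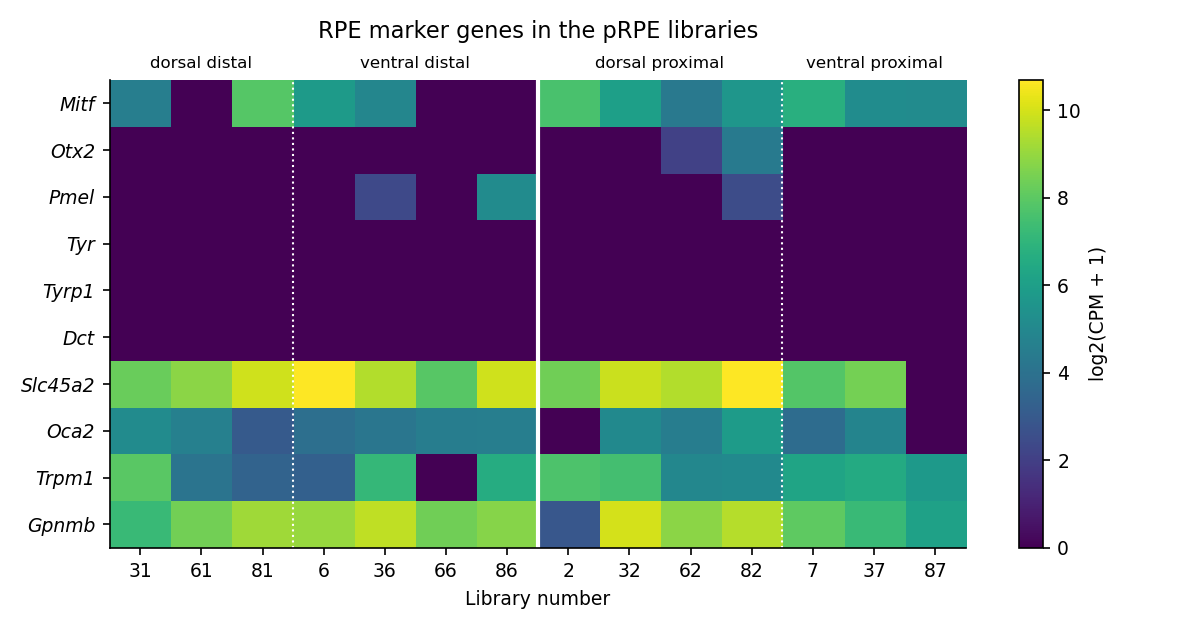
Level of 10 RPE marker genes, as log2(CPM + 1), in each pRPE library, with distal libraries left and proximal libraries right of the solid line. Slc45a2 and Gpnmb are counted in nearly all libraries, while Tyr, Tyrp1 and Dct are at 0 in all 14.

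The row names were set against genes that are abundant in most cells. Of 40 widely expressed genes, 23 had no count in the 14 libraries, and Ywhaz, an adaptor protein, was the 1 gene among them counted in all 14 (317 to 2656 CPM in distal and 633 to 2698 CPM in proximal pRPE). Gapdh, an enzyme of glycolysis, had no count in 6 of the 14 libraries and at most 48.7 CPM. The 89 rows of ribosomal protein genes held 0.485% of the counts on nuclear genes, from 0.214% to 0.763% per library, and 42 of them had no count. The 10 nuclear rows with the highest mean CPM held 15.9% of the nuclear counts. They were Mmgt2, Ltbp3, Col19a1, Sub1, Mrpl38, Or52b6-ps1, Gdf11, Ndufa4, Esp16 and Dhdh, and they included an olfactory receptor pseudogene and a secreted peptide of the exocrine gland family. Mmgt2 alone held 4.57% and Ltbp3 held 2.74% of the nuclear counts. Each value of a gene given here, the RPE markers included, is therefore the count listed under a symbol, and whether the symbol fits the reads was not tested. None of the 10 rows differed between distal and proximal pRPE beyond the spread: their adjusted p was 1.00 in edgeR, with 0.44 for Mmgt2 and -0.28 for Ltbp3 as log2 fold changes (SE 0.26 each).

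With no gene called, the genes named are the 5 with the smallest p in each direction among those counted in at least 10 of the 14 libraries and moving the same way in both batches. Their adjusted p in edgeR was 0.644 in each case, so their values are given as a description. Vipr1, a receptor for vasoactive intestinal peptide, came first (chromosome 9, 121642716 to 121672954). Dorsal distal libraries 31, 61 and 81 had 421, 342 and 469 CPM and ventral distal libraries 6, 36, 66 and 86 had 79.1, 133, 25.2 and 281 CPM. Dorsal proximal libraries 2, 32, 62 and 82 had 9.58, 7.06, 13.8 and 11.9 CPM and ventral proximal libraries 7, 37 and 87 had 21.0, 25.6 and 47.6 CPM. Of the 7 distal libraries, 6 were above all proximal ones, and library 66 lay within the proximal range. The log2 fold change was 3.62 (SE 0.83, unadjusted p = 5.56e-04 in edgeR), with 3.71 within batch A and 3.54 within batch B. DESeq2 called it with an adjusted p of 4.77e-04, the lowest over 34 alternative settings, whose highest was 1.00. The distal-proximal difference was smaller on the ventral than on the dorsal side by 3.25 on the log2 scale, which did not pass the test of the interaction (edgeR, adjusted p = 0.533).

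The other genes named as higher were Gm10754, Asxl2, Cibar1 and Ttn. Gm10754, a predicted gene on chromosome 10 (97681414 to 97967090), ranged from 43.9 to 445 CPM in distal pRPE (median 104), whereas proximal pRPE ranged from 0 to 36.6 CPM (median 18.1) with a count in 4 of 7 libraries. Asxl2, a chromatin protein associated with Polycomb repression, ranged from 0.372 to 164 CPM in distal (median 93.7) and from 0.26 to 18.7 CPM in proximal pRPE (median 6.10), and these ranges overlapped. Cibar1, which encodes a protein at the base of the cilium, had medians of 509 and 247 CPM (log2 fold change 1.15, SE 0.43). Ttn, which encodes titin of the sarcomere, had medians of 331 and 125 CPM (log2 fold change 1.38, SE 0.53). For both, the lowest distal libraries lay within the proximal range.

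Named as lower in distal pRPE were Pnisr, Gm38227, Tlcd3b, Capza2 and Fchsd2. Pnisr, which encodes a serine- and arginine-rich nuclear protein, had 65.1, 383 and 706 CPM as the lowest, median and highest distal value, and 544, 862 and 1276 CPM in proximal pRPE (log2 fold change -1.11, SE 0.41). Capza2, a subunit of the protein that caps actin filaments, had 317, 855 and 1333 CPM in distal and 538, 1603 and 1852 CPM in proximal pRPE (log2 fold change -0.94, SE 0.36). Apart from ventral proximal library 37, each proximal library was above each distal one for Capza2. Fchsd2, an F-BAR protein of endocytosis and actin assembly, had medians of 61.8 and 263 CPM and was not counted in distal library 6. Tlcd3b, a gene of ceramide synthesis, had medians of 4.29 and 50.8 CPM, with the highest values in distal library 31 (38.7 CPM) and proximal library 2 (281 CPM). Gm38227, a predicted gene, had medians of 9.71 and 68 CPM.

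**Figure D3:**
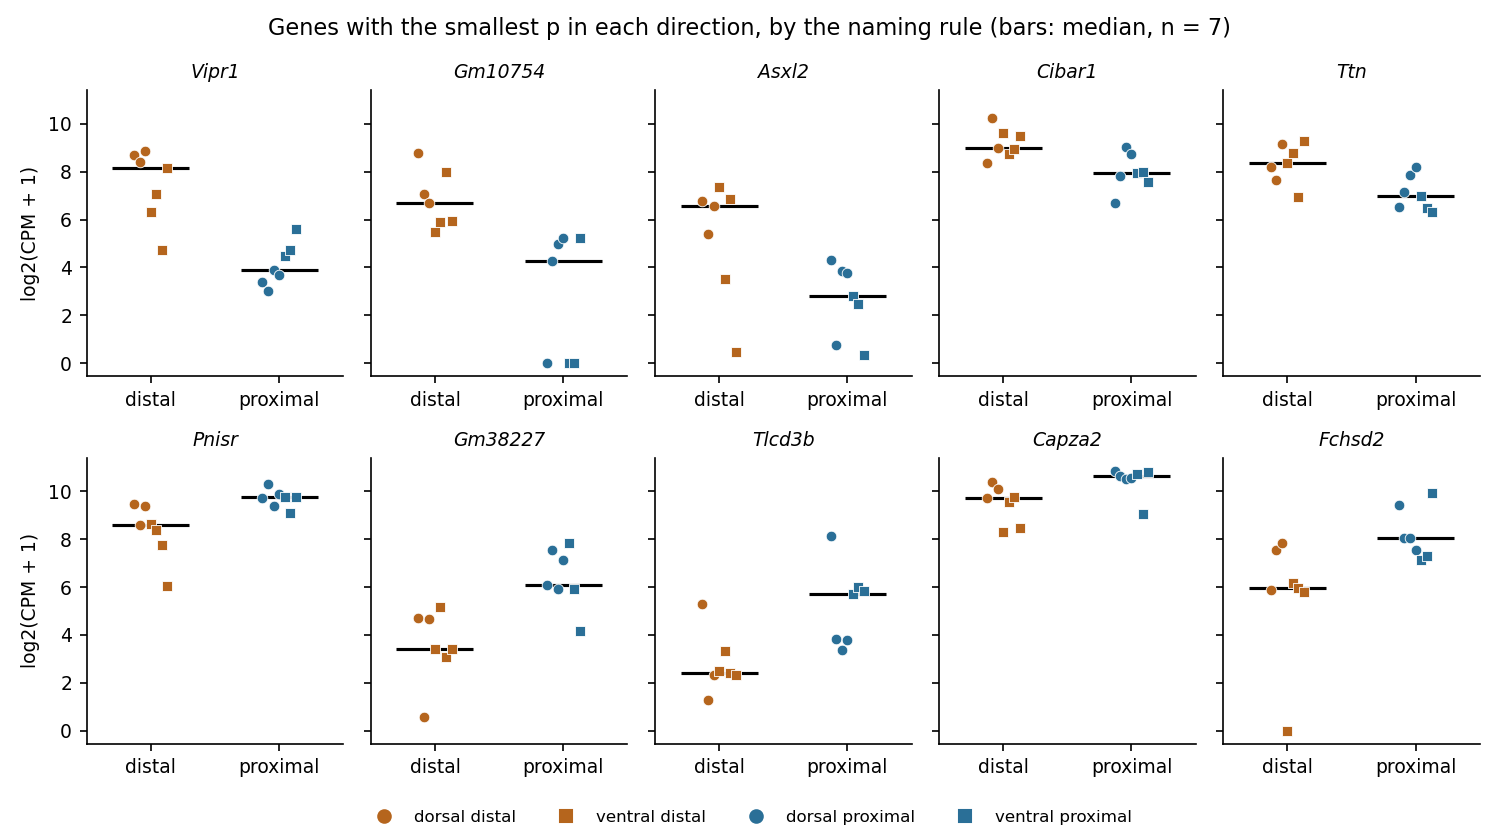
Level of the 5 genes named as higher (top) and the 5 named as lower (bottom) in distal pRPE, as log2(CPM + 1), for each library. Horizontal bars give the median of 7 libraries. Gm10754 is the gene of these 10 whose groups do not overlap, and its adjusted p in edgeR was 0.644.

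Among all genes tested, the groups did not overlap for 2 genes higher in distal pRPE (0.0317% of genes) and 1 lower gene (0.0159%). Besides Gm10754 these were Ptprz1 and Sorbs2, which the rule did not name and which were picked out after their values were seen. Ptprz1, a receptor tyrosine phosphatase of glial and neural progenitors, had 217, 384 and 767 CPM as the lowest, median and highest distal value and 0, 27.1 and 139 CPM in proximal pRPE, with a log2 fold change of 3.46 (SE 1.51, edgeR adjusted p = 0.826). Sorbs2, a cytoskeletal adaptor, had 45.4, 103 and 117 CPM in distal and 133, 163 and 284 CPM in proximal pRPE, with a log2 fold change of -0.87 (SE 0.49, edgeR adjusted p = 1.00).

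Whether a gene was counted at all was tested separately. With Fisher's exact test on the number of libraries with a count, 0 genes were called after adjustment, and 25 (0.397%) had an unadjusted p under 0.05, of which 2 were counted in more distal and 23 in more proximal libraries. This number was between 38 and 111 when each library was left out in turn, with the highest values without proximal libraries 87 (111) and 2 (102). These were the proximal libraries with the fewest detected genes (3760 and 3427). With a library left out the groups are unequal and the test can reach other p-values, so these numbers cannot be set against 25. Proximal libraries also had on average more genes with a count, and the part of this in the result was not tested. Tln2, a talin that links integrins to actin, had the smallest p (0.00466, two-sided Fisher's exact test, adjusted 1.00), with no count in 7 distal libraries and a count in 6 of 7 proximal ones. Its proximal mean of 19.3 CPM was at least 18.5-fold higher than the distal level that 3 counts per library allow, and without dorsal proximal library 2, its highest, the mean was 6.80 CPM and the bound 6.52-fold. In the other direction, Prrt4, a proline-rich membrane protein gene, was counted in 5 of 7 distal and in no proximal libraries, at least 32.6-fold higher. A gene with no count in one group, such as Tln2, Prrt4 and, below, Boc, Lamc1, Prox1 and Cd68, passed the filter on low counts only through the group where it was counted, so its direction was fixed by the filter and its fold and p are a description. Riok1, a kinase of ribosome assembly, was counted in 7 distal and 2 proximal libraries. Riok1 and Prrt4 were among the 37 genes that DESeq2 called, whereas edgeR gave each an adjusted p of 0.644.

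Smarcc1, the chromatin remodelling subunit that the study deletes in other animals, was also among the 25 genes and is given because the study is about it. It was counted in distal library 36 alone (21.7 CPM), and in 6 of 7 proximal libraries with 4.71 to 125 CPM, the exception being dorsal proximal library 2. Fisher's exact test gave p = 0.0291 (adjusted 1.00), and the log2 fold change in edgeR was -5.39 (SE 3.38, adjusted p = 1.00), with -1.12 within batch A. Within batch B no distal library counted Smarcc1, so the fitted value of -10.88 there is no measured fold.

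The genes of 19 lists were followed along the axis, and 0 of their genes were called. Most members were too sparse to test: the melanosome list had 8 of 24 genes tested, the list of RPE specification 3 of 13, and that of the visual cycle and mature RPE 3 of 22. Of the 8 melanosome and pigment genes, 7 were above 0, with a median log2 fold change of 0.72 against -0.12 over all genes tested, and none had an unadjusted p under 0.05. They were Pmel, Slc45a2, Oca2, Gpnmb, Slc24a5, Slc7a11 and Met above 0 and Trpm1 below, with values between -0.20 and 1.37. Pmel, Slc24a5 and Met were counted in 3, 3 and 4 of the 14 libraries, with SEs of 5.17, 12.28 and 2.55. These signs are those of the fit, and the plain means ran the other way for Oca2 (20.3 CPM in distal and 21.9 CPM in proximal pRPE) and Slc24a5 (5.72 and 7.10 CPM). Means of Slc45a2 and Gpnmb ran in opposite directions on the 2 sides, which did not pass the test. On the dorsal side Slc45a2 had means of 575 CPM in distal and 897 CPM in proximal pRPE and Gpnmb of 355 and 552 CPM, whereas on the ventral side the means were 892 and 192 CPM and 526 and 160 CPM. In edgeR the interaction had an adjusted p of 0.659 for Slc45a2 and 0.645 for Gpnmb, and over the alternative settings their log2 fold changes ran from -0.85 to 3.61 and from -0.90 to 1.99. The summed level of the whole list ranged from 717 to 2259 CPM in distal pRPE (median 1639) and from 245 to 2665 CPM in proximal pRPE (median 706), so that the groups overlapped.

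In the list of RPE specification, Mitf and Klf4 were below 0 and Tfec, a factor of the Mitf family, above. Tfec was counted in 6 of 7 distal libraries (0 to 909 CPM, median 94.8) and in ventral proximal libraries 7 and 37 (139 and 171 CPM). No dorsal proximal library counted it, and its log2 fold change of 5.84 (SE 2.91) had an adjusted p of 0.990 in edgeR. For Tfec the value was 2.95 within batch A. Within batch B no proximal library counted it, so the fitted value of 11.38 there is no measured fold. The adjusted p of Tfec ran from 0.0562 to 1.00 over the alternative settings, none of which called it. The 3 genes of the visual cycle and mature RPE list were all below 0 (median -1.06). Among them Serpinf1, which encodes the secreted factor PEDF, had medians of 131 CPM in distal and 240 CPM in proximal pRPE (log2 fold change -1.06, SE 0.73, edgeR adjusted p = 1.00).

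Of 20 genes of the ciliary margin and cup rim, 3 were tested, and Crim1, a membrane protein that binds BMPs, had an unadjusted p of 0.0328 in edgeR (log2 fold change -3.06, SE 1.30, adjusted p = 0.778). It was counted in distal libraries 31 (5.86 CPM) and 81 (8.58 CPM), and in dorsal proximal libraries 2, 32, 62 and 82 with 105, 112, 13.3 and 12.8 CPM and ventral proximal library 87 with 0.52 CPM. Ccnd2, a cyclin of the ciliary margin, was counted in all 14 libraries, with medians of 270 and 427 CPM (log2 fold change -0.71, SE 0.62, edgeR adjusted p = 1.00).

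Of 42 genes of the Wnt pathway, 10 were tested, 3 above and 7 below 0, with a median of -1.36. The receptors Fzd1 and Fzd8 were counted in 3 and 2 distal and in 6 and 4 proximal libraries. The co-receptor Lrp6 had a log2 fold change of -0.31 (SE 1.69). Notum, a secreted enzyme that inactivates Wnt proteins, was counted in all 7 distal libraries (13.8 to 88.8 CPM, median 69.7) and in proximal libraries 32, 62 and 37 (56.8, 84 and 30.8 CPM), with a log2 fold change of 1.71 (SE 1.88, edgeR adjusted p = 1.00) that ran from 0.19 to 4.53 over the alternative settings. In the list of BMP, TGF-beta and FGF signalling, 7 of 44 genes were tested, 2 above and 5 below 0 (median -0.24). Id3, a target of BMP signals, had medians of 672 and 432 CPM (log2 fold change 0.43, SE 0.46), and Tgfbr1, a TGF-beta receptor, had medians of 359 and 605 CPM (log2 fold change -0.82, SE 0.60). The antagonist Chrd had medians of 54.2 and 52.8 CPM. None of these had an unadjusted p under 0.05.

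Of 13 Hedgehog genes, 4 were tested, 2 above and 2 below 0 (median -1.09). Smo, the signal transducer of the pathway, was counted in all 14 libraries, with 126, 584 and 896 CPM as the lowest, median and highest distal value and 94.3, 234 and 655 CPM in proximal pRPE (log2 fold change 0.81, SE 0.50, edgeR adjusted p = 1.00). Boc, a co-receptor, was counted in distal libraries 31, 81 and 36 (7.61, 17.2 and 19.8 CPM) and in no proximal library, at least 5.21-fold higher, or 3.38-fold without library 36, with an adjusted p of 0.644 in edgeR. The inhibitors Hhip and Sufu were below 0, with log2 fold changes of -4.07 (SE 2.70) and -2.98 (SE 3.41) and an adjusted p of 1.00 in edgeR each. Of 15 Hippo genes, 7 were tested (median -0.42), and the effector Yap1 had medians of 256 CPM in distal and 306 CPM in proximal pRPE (log2 fold change -0.66, SE 1.03). Of 16 genes of retinoic acid signalling, 2 were tested, Rara at 0.25 and Rarg at -1.43 on the log2 scale.

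The list of the optic stalk and disc had 5 of 20 genes tested, with a median log2 fold change of 0.48, and none had an unadjusted p under 0.05. Cdh6, a cadherin, was counted in 6 distal and 4 proximal libraries, and the guidance factor Slit2 in 5 of each. The cell cycle list had 14 of 36 genes tested, 6 above and 8 below 0 (median -0.15). Mcm7, of the helicase that opens DNA for replication, was counted in all 14 libraries with medians of 345 and 401 CPM (log2 fold change -0.10, SE 0.49). Top2a, which untangles DNA in dividing cells, was counted in 4 distal libraries (at most 24.6 CPM) and in all 7 proximal ones (8.57 to 49.8 CPM), with a log2 fold change of -2.45 (SE 1.61, edgeR adjusted p = 1.00). For Cdk6 and Ccne2 the log2 fold change was above 0 in every alternative setting (1.07 to 3.82 and 0.23 to 1.62), and no setting called them. Cdk6 was highest in distal library 31 (3671 CPM).

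Of 35 genes of adhesion and basement membrane, 12 were tested, 6 above and 6 below 0 (median -0.17). Cdh3, the P-cadherin of pigmented epithelia, was counted in all 14 libraries, from 132 to 400 CPM in distal and from 155 to 365 CPM in proximal pRPE (log2 fold change 0.13, SE 0.43). Its 2 groups covered nearly the same range. Lamc1, a laminin chain, was counted in 4 distal libraries and in no proximal one, at least 8.27-fold higher, or 4.29-fold without library 6, with an adjusted p of 0.644 in edgeR. Lamb1, another laminin chain, had medians of 74.9 and 159 CPM (log2 fold change -1.48, SE 0.96).

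**Figure D4:**
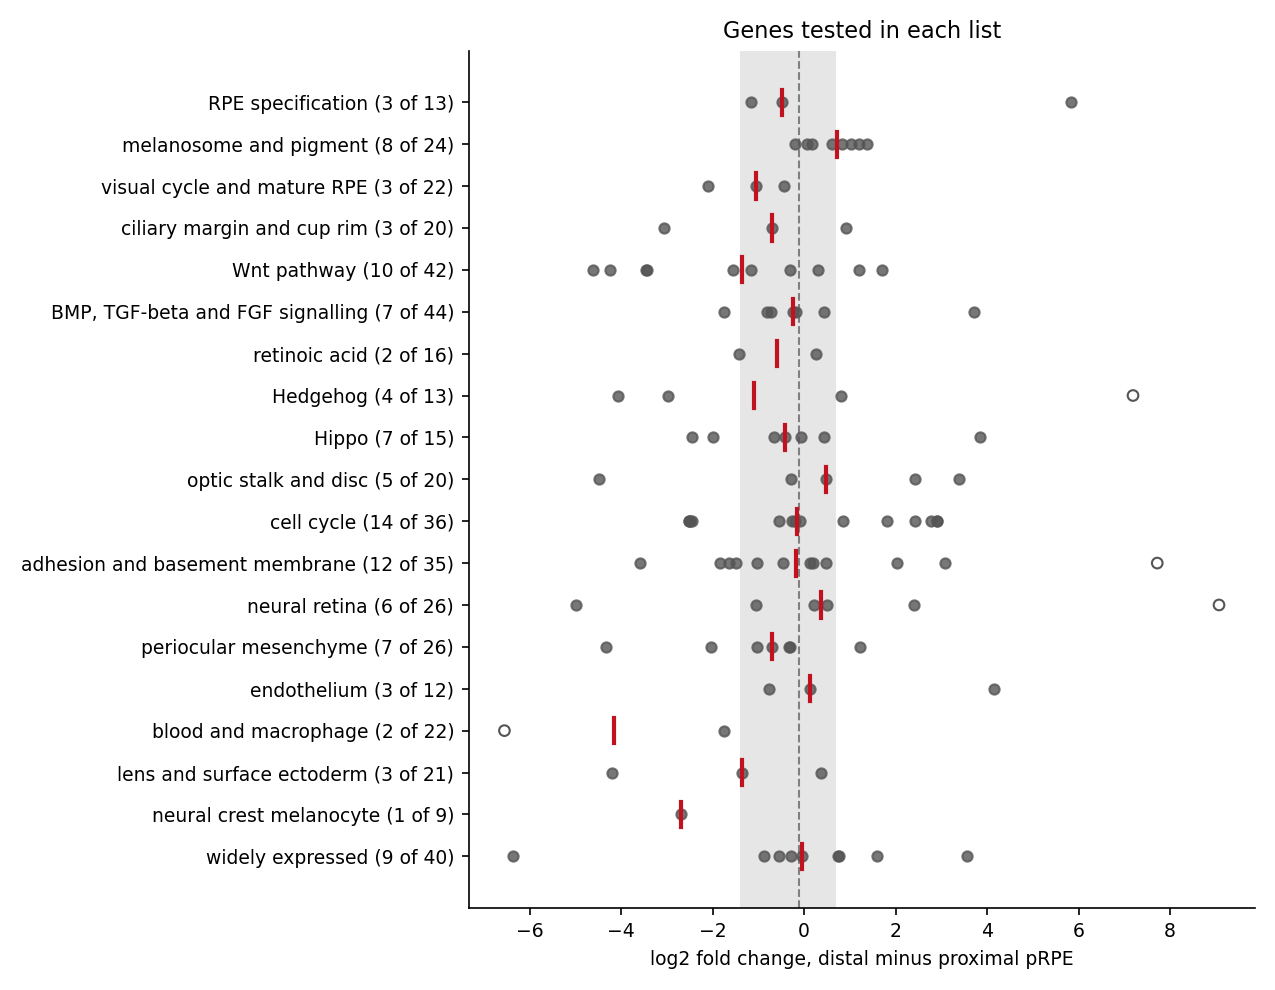
Log2 fold change, distal minus proximal pRPE, of each tested gene of the 19 lists (points), with the list median in red. The number of genes tested of those listed stands beside each name, the dashed line is the median of all 6305 genes (-0.12), the grey band is their middle range between quartiles (-1.37 to 0.68), and open points are genes with no count in one group, whose fitted value is no bound.

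Few markers of other cells that a captured area could hold were counted often enough to test. Of 26 periocular mesenchyme genes, 7 were tested, 1 above and 6 below 0 (median -0.70), and their summed level ranged from 337 to 1610 CPM in distal (median 756) and from 691 to 2087 CPM in proximal pRPE (median 1273). Vim, an intermediate filament that neural progenitors express as well, made up much of this, with medians of 717 and 947 CPM (log2 fold change -0.70, SE 0.35, edgeR adjusted p = 0.990). Col1a2, a collagen gene of the list, ranged from 0 to 659 CPM in distal and from 0 to 1086 CPM in proximal pRPE. In proximal library 62 it was above Vim (1086 and 947 CPM). Of 26 neural retina genes, 6 were tested, 4 above and 2 below 0 (median 0.37), with summed levels of 135 to 756 CPM in distal and 202 to 602 CPM in proximal pRPE. Notch1, a receptor gene, was counted in all 14 libraries, from 103 to 674 CPM in distal and from 133 to 503 CPM in proximal pRPE. Elavl3 ranged from 0 to 111 and from 0 to 142 CPM, and Atoh7 from 0 to 5.55 and from 0 to 8.14 CPM. For each of these genes the groups overlapped. Prox1, of retinal progenitors and horizontal cells, was counted in no proximal library. Its distal counts were in libraries 31, 81 and 66 (65.3, 37.9 and 65 CPM). Prox1 was at least 19.7-fold higher in distal pRPE, or 14-fold without library 31, with an adjusted p of 0.644 in edgeR. Rax, a factor of retinal progenitors, was counted in 1 distal and 5 proximal libraries (log2 fold change -4.98, SE 3.64, edgeR adjusted p = 1.00). Blood and macrophage genes summed to 0 to 17.2 CPM in distal and 12.0 to 79.1 CPM in proximal pRPE, with 2 of 22 genes tested (median -4.15, or -2.07 with the gene at 0 in distal pRPE at its bound). Cd68, of macrophages, was counted in proximal libraries 32, 82 and 7 alone, at least 5.24-fold higher, or 1.77-fold without library 7. Endothelial genes summed to 0.925 to 288 CPM in distal and 24.1 to 140 CPM in proximal pRPE. Lens and surface ectoderm genes summed to at most 38.3 and 117 CPM, and neural crest melanocyte genes to at most 129 and 230 CPM. The part of these cells in the differences above was not tested.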

How the data were processed

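RNA of 14 pRPE libraries was analysed, out of 30. The authors aligned reads with HISAT2 to GRCm38, quantified with StringTie and deposited estimated counts per gene symbol, not normalized; the counting program and annotation release are not given in the sources used here. The Nextera XT kit does not mark strand, so overlapping genes cannot be told apart. Values that were not whole (270 in 63 genes) were rounded. Of 56484 listed rows, 6305 had more than 10 counts in at least 3 of the 14 libraries and were tested with edgeR 4.0.16 (R 4.3.3, TMM, quasi-likelihood), with dorsal-ventral position and batch as covariates. CPM were per TMM-scaled library. Alternatives used DESeq2 1.42.0, limma 3.58.1, other filters, scalings, covariates and subsets. Over all 14 libraries, library measures were tested with exact permutations over 3432 splits, with a smallest p of 5.83e-04. A batch or a side alone has fewer splits and a larger smallest p. The edgeR and Fisher steps were tested on simulated data. PC1 was computed on log2 CPM of the tested genes (prior count 1) with python 3.11.15. Gene positions are from RefSeq on GRCm38. With under 5 genes called in a direction, the naming rule took the 5 with the smallest p, counted in at least 10 libraries and moving the same way in both batches. It also allowed list members counted in at least 7 libraries and the 10 nuclear rows with the highest mean CPM. The comparison, lists and rule were chosen with earlier results of these data known. Other list members named were counted in fewer libraries and, like the genes named for detection, chosen after their values were seen. Reads carried no stated molecular identifiers, and the floor of 3 counts per library covers counting error only.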

Additional observations from a re-analysis of the deposited data

Results flagged for a closer look

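Among the 10 named genes, 3 groups held a library far from the other 6, with a gap to the nearest that was large against the group's whole range (Dixon's ratio above its 95% critical value). Tlcd3b had such a library in both groups, distal library 31 with 38.7 CPM (ratio 0.793) and proximal library 2 with 281 CPM (ratio 0.800). Capza2 had one in proximal library 37, the lowest with 538 CPM (ratio 0.702). Chance gives about 1 such library in 20 groups.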

How the results depend on the processing

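The count of 0 genes between distal and proximal pRPE held in edgeR under other scalings, filters, covariates, batches, sides and without each library in turn, except without a filter on low counts (14). It was 37 in DESeq2 and 4 in limma voom with quality weights (all mitochondrial, higher in distal pRPE). Without library 81 the number at an unadjusted p under 0.05 rose from 348 to 531. The interaction had 792 genes in DESeq2 and 0 in the other alternatives, and detection had 0 in all. At an unadjusted p under 0.05, detection had 25 genes, and 38 to 111 without single libraries, where the unequal groups can reach other p-values. The block of library numbers as a replicate block in place of batch gave 0 genes called (252 at an unadjusted p under 0.05). Libraries of one block had deviations that correlated at 0.0388 on average (18 pairs, -0.0355 to 0.143, 4 above 0.1), against -0.0173 for the other block of the batch (18 pairs, 0 above 0.1) and -0.00758 for the other batch (37 pairs, 1 above 0.1). Because not every pair was above 0.1, the main fit did not treat the samples as paired. This rule cannot decide whether a block is an embryo, so distal and proximal libraries of a block may share an embryo. Within batch A alone the differences turned for detected genes (21.5), mitochondrial share (2.29 percentage points) and PC1 (1.79), and within batch B for total counts (-954638). Leaving out single libraries, the difference in detected genes ranged from -1882 (without library 81) to -648 (without library 82), PC1 from -71.2 to -27.2 (without the same libraries), total counts from -179156 to 533047, and mitochondrial share from -6.54 to -2.37 percentage points. The total turned, and the share passed an unadjusted p of 0.05, only without library 31. The cause was not tested. DESeq2 called Vipr1 (3.54). The rule took the named genes for a small p and one direction in both batches, so their keeping that direction is no sign of stability. Fold bounds without the highest library were added after the data were seen. Among list members DESeq2 called Tbp (-7.01), and no other setting called one, though several uncalled values crossed 0. The median SE was 1.93 on the log2 scale, and the part of depth in it was not tested.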
